A study of Homo sapiens with 8 samples.

Results

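The TGF-beta and BMP pathway was described through 51 named genes, from ligands and receptors to SMAD proteins, antagonists and ID target genes. The genes were taken from a named list, which was drawn up with earlier results of these data known. Each gene was read through its gene-end peak, the ATAC-seq peak with the highest mean signal within 1 kb of either end of its RefSeq span on hg38, and through the strongest peak over its span. A gene-end peak was present for 48 of the 51 genes (the exceptions were BMP5, NODAL and TGFBR3), and all 51 had a peak over the span. ATAC-seq marks open chromatin, where the transposase Tn5 can insert sequencing adapters. All cells were of A2780, a human ovarian cancer line in long use. They fell into cisplatin-resistant, paclitaxel-resistant and dual-resistant derivatives (resistant to cisplatin and paclitaxel together) and control cells, with 2 libraries in each of the 4 groups. All groups carry the genotype label WT, the treatment label names the drug or drugs for each resistant line, and control has none. Cisplatin crosslinks DNA and paclitaxel stabilises microtubules. The sources used here do not say whether drug was present at harvest, how many clones a resistant line comes from, or whether the libraries of a group were separate cultures. The p-values therefore measure the spread between libraries, which may be technical.

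In this pathway, dimeric ligands bring together a type II and a type I receptor kinase, the type I receptor phosphorylates receptor-regulated SMAD proteins, and these enter the nucleus with SMAD4 to bind DNA. TGF-beta and activin ligands act mainly through SMAD2 and SMAD3, and BMP ligands mainly through SMAD1, SMAD5 and SMAD9. SMAD6, SMAD7, the SMURF ubiquitin ligases, the pseudoreceptor BAMBI and secreted proteins such as noggin limit the signal, and the ID genes are classical BMP targets. The surface epithelium of the ovary is known to respond to both branches, and TGFBR2 is the receptor that TGF-beta ligands bind first.

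The libraries held 7693492 to 9304798 reads in peaks, so that 1 read was worth 0.107 to 0.130 CPM (read counts scaled to one fixed total of reads in peaks for every library) and a count of 0 allows up to 0.322 to 0.390 CPM (3 reads), for counting error only. Of 12 ovarian carcinoma and epithelial markers, 10 had a gene-end peak and KRT19 and MUC16 had none. Their summed signal was 55.9 and 48.9 CPM in cisplatin-, 42.7 and 46.8 CPM in paclitaxel- and 55.4 and 60.8 CPM in dual-resistant libraries, against 61.2 and 58.6 CPM in control libraries, with the peak shared by KRT8 and KRT18 entered for each. The 6 of 7 fibroblast markers with a peak summed to 67.9 and 69.9, 66.7 and 68.6, and 46.4 and 47.4 CPM in the cisplatin-, paclitaxel- and dual-resistant libraries, against 35.6 and 35.1 CPM in control libraries. These sums rested on few genes, with PDGFRB and COL1A1 called higher and COL1A2 lower in cisplatin-resistant cells, DCN and LUM higher in paclitaxel-resistant cells and COL1A1 higher in dual-resistant cells. Of the epithelial markers, PAX8 was called higher and SOX17 lower in cisplatin-resistant cells. WT1, EPCAM and SOX17 were called lower in paclitaxel-resistant cells. The part of these markers in the results below was not tested. A peak's level reports accessibility, not expression, and in bulk cells a smaller share of cells with an open site cannot be told apart from less signal per cell.

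The promoter sequences below come from RefSeq (GRCh38.p14, plus strand, 250 bases before a listed start and the start base) and lie wholly inside the gene-end peaks whose levels are described further on. They are shown as 1 example each of a receptor, a ligand, an antagonist and an ID gene whose gene end passed a test and whose listed window lies inside its peak. The capitals mark GGCGCC, a GC-rich element that SMAD proteins can bind, the SMAD box CAGAC (read on either strand), and the element TGANTCA, which AP-1 factors bind. In TGFBR2 the capitals are the AP-1 element, in TGFB2 and ID4 the SMAD box, and in BAMBI 3 GC-rich elements and 2 SMAD boxes.
TGFBR2 chr3:30606351-30606601: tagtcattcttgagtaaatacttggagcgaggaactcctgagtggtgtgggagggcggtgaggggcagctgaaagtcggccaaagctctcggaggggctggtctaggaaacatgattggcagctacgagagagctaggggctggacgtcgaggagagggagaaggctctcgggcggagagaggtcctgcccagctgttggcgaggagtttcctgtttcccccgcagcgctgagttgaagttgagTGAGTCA
TGFB2 chr1:218345086-218345336: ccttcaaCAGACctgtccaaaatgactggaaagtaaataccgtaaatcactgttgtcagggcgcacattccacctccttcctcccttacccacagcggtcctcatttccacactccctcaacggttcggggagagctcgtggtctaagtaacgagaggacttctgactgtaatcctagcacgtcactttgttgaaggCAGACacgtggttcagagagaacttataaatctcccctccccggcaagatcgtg
BAMBI chr10:28677271-28677521: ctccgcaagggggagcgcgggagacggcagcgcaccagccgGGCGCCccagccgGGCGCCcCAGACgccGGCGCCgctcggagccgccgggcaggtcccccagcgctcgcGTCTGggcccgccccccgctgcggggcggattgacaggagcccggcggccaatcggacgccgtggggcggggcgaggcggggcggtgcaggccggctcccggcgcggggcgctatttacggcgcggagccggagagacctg
ID4 chr6:19837120-19837370: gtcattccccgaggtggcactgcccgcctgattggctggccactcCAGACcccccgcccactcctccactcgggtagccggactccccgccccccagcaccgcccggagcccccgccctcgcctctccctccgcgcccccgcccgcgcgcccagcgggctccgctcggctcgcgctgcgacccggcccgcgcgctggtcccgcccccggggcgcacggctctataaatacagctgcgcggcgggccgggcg

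A start was listed for 43 of the 51 genes, with 71 windows of this length in all. Over both strands, GGCGCC occurred in 22.5% of the 71 windows, against 20.7% of all 22199 listed promoter windows. The SMAD box occurred in 36.6% of the pathway windows and 37.3% of all windows, TGANTCA in 8.45% and 5.52%, and CACCTG, the E-box of SNAI and ZEB factors, in 12.7% and 17.1%. None of these motifs holds another within it, and a match is only a description of the letters.

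Compared with control, most pathway gene ends that changed in a resistant line had fallen. All gene ends did the same in the cisplatin- and dual-resistant lines, so this direction is not read as particular to the pathway there. Pathway gene ends did not mostly fall in paclitaxel-resistant cells with median-ratio scaling or edgeR, nor in cisplatin-resistant cells with loess scaling. In cisplatin-resistant cells 2 of the 48 gene ends rose and 17 fell by limma's test (adjusted p under 0.05, with Benjamini-Hochberg adjustment across the 158698 peaks tested), beside 11.1% higher and 28.6% lower among the 15952 gene ends of all protein-coding genes. In paclitaxel-resistant cells 2 rose and 11 fell, beside 12.7% higher and 9.68% lower among all gene ends. In dual-resistant cells 1 rose and 8 fell, beside 4.86% and 14.8%. The share called in either direction was 39.6% in cisplatin-, 27.1% in paclitaxel- and 18.8% in dual-resistant cells, near the 39.7%, 22.4% and 19.7% of all gene ends, so the number of calls is not read as a result about the pathway genes. The median log2 difference was -0.35, -0.02 and -0.13 over the 48 gene ends, against -0.19, 0.01 and -0.13 over all gene ends. The 3 comparisons share the control libraries.

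The balance of higher and lower calls moved with the scaling. With cyclic loess scaling, cisplatin-resistant cells had 7 gene ends higher and 7 lower (16.7% and 13.5% of all gene ends), paclitaxel-resistant cells 3 and 7 (10.5% and 9.37%), and dual-resistant cells 2 and 6 (6.19% and 7.90%). With median-ratio scaling the counts in the same order were 3 higher and 10 lower (14.7% and 17.5% of all gene ends), 8 and 7 (26.3% and 5.81%), and 1 and 10 (3.87% and 23.3%). With edgeR they were 3 and 12 (13.5% and 20.2%), 9 and 7 (25.6% and 5.80%), and 1 and 10 (3.76% and 25.6%). The shares of all gene ends thus moved with the scaling too. Median-ratio scaling moved the median of all gene ends to -0.08 in cisplatin-, 0.18 in paclitaxel- and -0.21 in dual-resistant cells, and loess scaling moved it to -0.02, -0.03 and -0.03. Without control library 2 the cisplatin count fell to 12 gene ends, and without dual-resistant library 1 the dual count fell to 4.

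**Figure D1:**
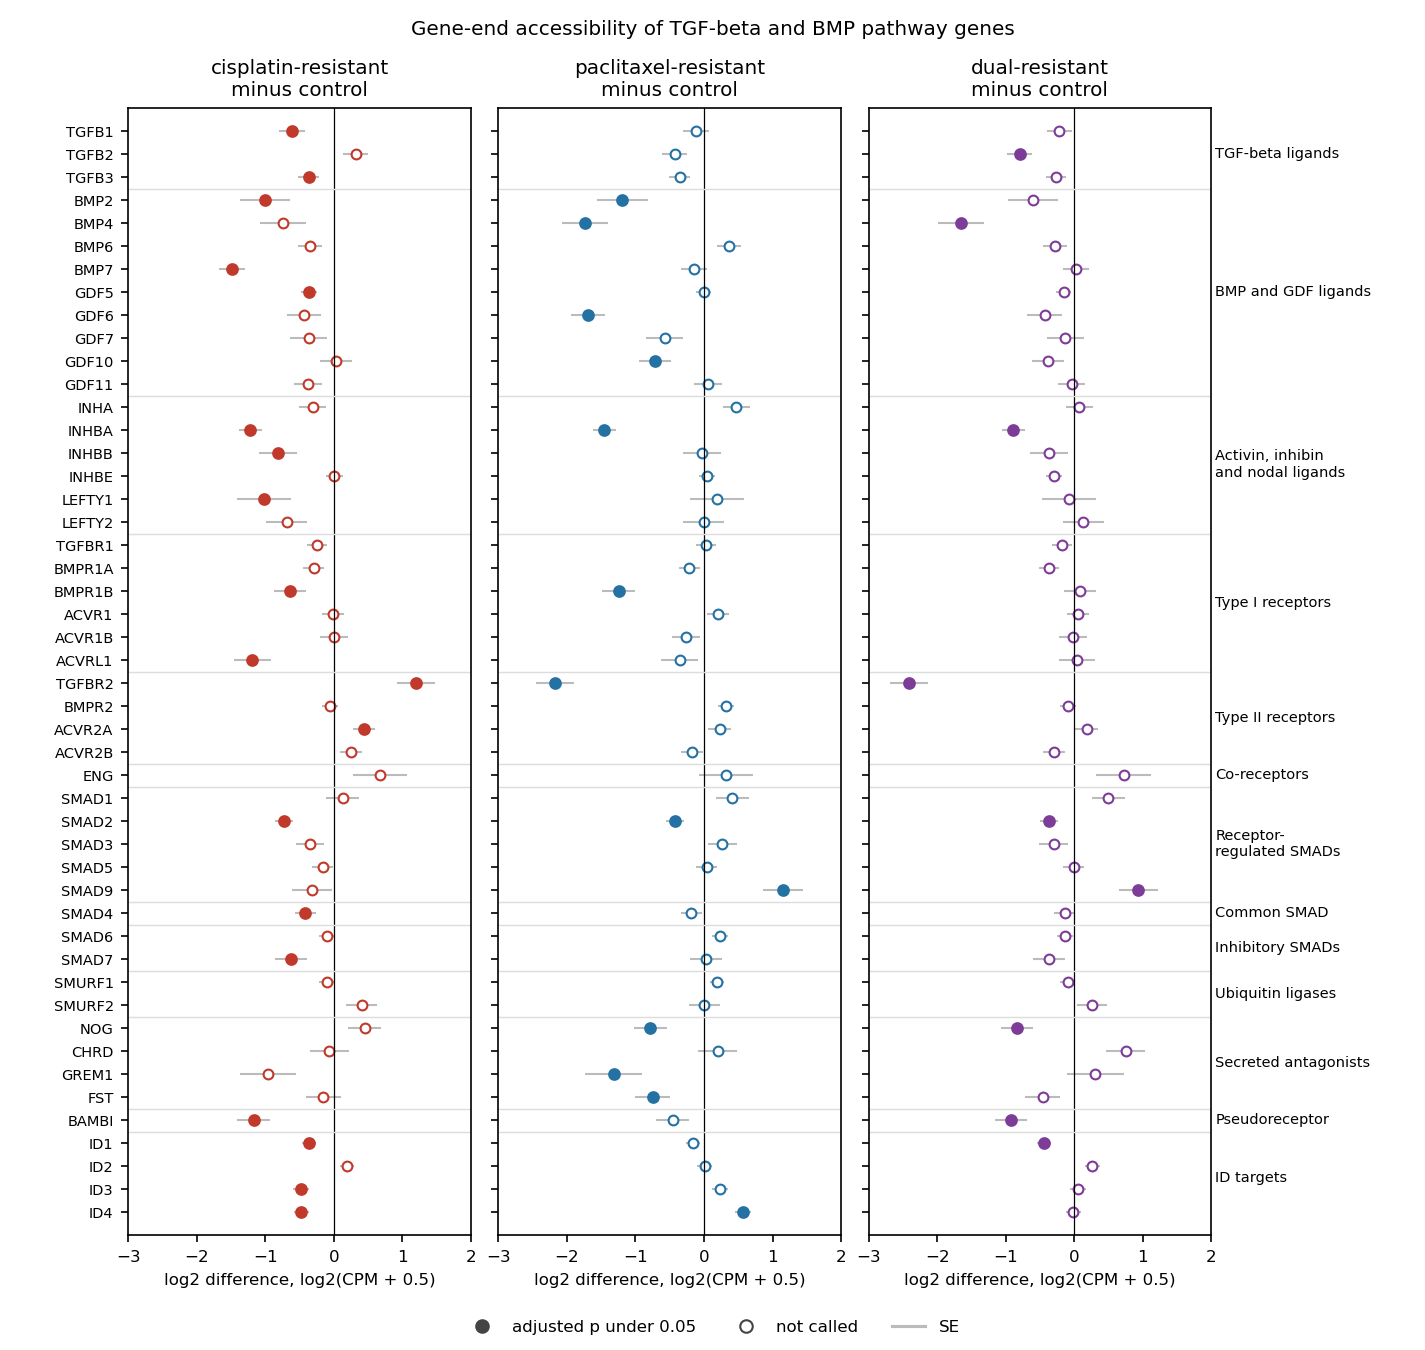
Log2 difference of each of the 48 gene-end peaks against control (x axis, log2(CPM + 0.5) scale) for the cisplatin-, paclitaxel- and dual-resistant lines, ordered by role. Filled points have an adjusted p under 0.05 and lines are 1 SE. TGFBR2 lies at 1.19 in cisplatin-resistant cells and at -2.18 and -2.41 in paclitaxel- and dual-resistant cells, and INHBA lies left of 0 in all 3 lines.

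Among the TGF-beta ligands, the gene end of TGFB2 (chr1:218344943-218345943) was lower in dual-resistant cells. It had 7.79 and 9.78 CPM in dual-resistant libraries, against 16.2 and 14.8 CPM in control libraries (log2 difference -0.79, SE 0.18, adjusted p = 0.000634). All dual-resistant values lay below all control values, but the call was lost without dual-resistant library 1 (log2 difference -0.64, adjusted p = 0.0515). The cisplatin-resistant libraries had 20.5 and 18.5 CPM and the paclitaxel-resistant libraries 11.1 and 11.8 CPM, and neither line passed the test against control (log2 differences 0.32 and -0.43, adjusted p = 0.179 and 0.101). TGFB1, the most widely expressed form, fell in cisplatin-resistant cells to 8.89 and 10.8 CPM, against 14.8 and 15.6 CPM in control (log2 difference -0.61, adjusted p = 0.00591), a call lost without cisplatin-resistant library 1 or control library 2 (log2 difference -0.58 to -0.48, adjusted p = 0.0524 to 0.0923) and with loess scaling. TGFB3 was also called lower there (log2 difference -0.37, adjusted p = 0.0444), and that call was lost without cisplatin-resistant library 2, control library 1 or control library 2 (log2 difference -0.44 to -0.17, adjusted p = 0.0661 to 0.516) and under quantile, median-ratio and loess scaling.

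Of the 9 BMP and GDF ligands with a gene-end peak, none was called higher in any resistant line. The lower calls numbered 3, 4 and 1 for cisplatin, paclitaxel and dual resistance. For the same lines, 11.1%, 12.7% and 4.86% of all gene ends were called higher and 28.6%, 9.68% and 14.8% lower. With so few ligands beside such small higher shares, the lack of higher calls is not read as a result about these ligands. At an unadjusted p under 0.05, limma gave 0 higher in cisplatin-, 1 in paclitaxel- and 0 in dual-resistant cells, and edgeR's adjusted calls gave the same numbers. BMP7, a ligand known for its part in kidney development, was lower in the cisplatin-resistant line. Its gene end (chr20:57266365-57267365) had 5.18 and 5.85 CPM in cisplatin-resistant libraries, against 16.1 and 16.5 CPM in control libraries (log2 difference -1.48, SE 0.19, adjusted p = 1.33e-10). The paclitaxel- and dual-resistant libraries had 15.2 and 14.3 CPM and 16.7 and 16.4 CPM, with log2 differences of -0.14 and 0.02 that did not pass the test (adjusted p = 0.680 and 0.961). BMP7 thus stood apart in the cisplatin-resistant libraries alone, while BMP4 was lowest in the other resistant lines.

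BMP4, a ligand of early mesoderm, fell at a peak 1.5 kb before its nearest listed start (chr14:53956067-53957067). It had 2.06 and 1.57 CPM in paclitaxel-resistant and 1.85 and 2.04 CPM in dual-resistant libraries, against 7.54 and 6.82 CPM in control libraries (log2 difference -1.73, SE 0.33, adjusted p = 2.18e-05, and log2 difference -1.65, SE 0.33, adjusted p = 8.07e-05). The strongest BMP4 span peak (chr14:53952842-53953842), which holds a start, followed it with 5.10 and 3.93 CPM and 4.58 and 4.73 CPM, against 13.7 and 11.6 CPM in control (log2 difference -1.39, adjusted p = 1.68e-06, and log2 difference -1.34, adjusted p = 5.64e-06). Cisplatin-resistant libraries lay between, at 4.05 and 4.09 CPM at the gene end (log2 difference -0.75, adjusted p = 0.0742).

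BMP2, a close relative of BMP4, had 2.25 and 1.87 CPM in cisplatin- and 1.70 and 1.80 CPM in paclitaxel-resistant libraries, against 5.20 and 4.12 CPM in control libraries (log2 difference -1.01, adjusted p = 0.0248, and log2 difference -1.19, adjusted p = 0.0135). Both BMP2 calls were lost with loess scaling. The cisplatin call was also lost without cisplatin-resistant library 1, cisplatin-resistant library 2, control library 1 or control library 2 (log2 difference -1.16 to -0.85, adjusted p = 0.0514 to 0.175) and the paclitaxel call without paclitaxel-resistant library 1, paclitaxel-resistant library 2 or control library 1 (log2 difference -1.22 to -1.04, adjusted p = 0.0536 to 0.147). GDF6, a joint and eye growth factor, fell in paclitaxel-resistant cells to 2.19 and 3.71 CPM, against 9.10 and 11.8 CPM in control (log2 difference -1.70, SE 0.25, adjusted p = 3.99e-08), with both groups apart. GDF10 was lower in the same line, at 5.10 and 5.84 CPM against 10.1 and 8.49 CPM in control (log2 difference -0.71, adjusted p = 0.0205), a call lost without paclitaxel-resistant library 1 or control library 1 (log2 difference -0.62 to -0.59, adjusted p = 0.145 to 0.190) and under every other scaling. The strongest GDF7 span peak also differed in paclitaxel-resistant cells, with 7.29 and 6.52 CPM in paclitaxel-resistant libraries and 10.3 and 13.5 CPM in control libraries (log2 difference -0.73, adjusted p = 0.00401). That call was lost without paclitaxel-resistant library 2 or control library 2 (log2 difference -0.66 to -0.54, adjusted p = 0.0567 to 0.153). GDF5, called lower in cisplatin-resistant cells (log2 difference -0.36, adjusted p = 0.00649), shares its gene end with CEP250, and the call was lost without cisplatin-resistant library 2 or control library 1 (log2 difference -0.28 to -0.24, adjusted p = 0.128 to 0.178) and under every other scaling. BMP6 and GDF11 passed no test against control at their gene ends.

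INHBA, the beta A subunit of activin A, was lower at its gene-end peak in all 3 resistant lines. Its gene-end peak (chr7:41704946-41705946), 2.4 kb before the nearest listed start, had 10.8 and 13.9 CPM in cisplatin-, 10.3 and 10.3 CPM in paclitaxel- and 15.5 and 15.6 CPM in dual-resistant libraries, against 28.9 and 29.5 CPM in control libraries. Every resistant library lay below both control libraries. The log2 difference was -1.22 (SE 0.17, adjusted p = 4.16e-09) in cisplatin-, -1.45 (adjusted p = 7.72e-12) in paclitaxel- and -0.89 (adjusted p = 2.73e-05) in dual-resistant cells. Of the 4 peaks over the INHBA span, 1 was called higher and 1 lower in cisplatin-resistant cells. In each of the other lines 2 were called lower and 0 higher.

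INHBE, which encodes another activin beta subunit and is known mainly from liver, was also lower in all 3 lines, at the strongest peak over its span (chr12:57455657-57456657). That peak had 12.2 and 14.03, 14.7 and 14.5 and 12.5 and 16.6 CPM in the cisplatin-, paclitaxel- and dual-resistant libraries, against 33.4 and 35.6 CPM in control libraries. The groups did not overlap (log2 difference -1.37, adjusted p = 1.45e-11 in cisplatin-, log2 difference -1.21, adjusted p = 1.20e-09 in paclitaxel- and log2 difference -1.23, adjusted p = 1.06e-09 in dual-resistant cells). The gene-end peak of INHBE, which it shares with GLI1, had 37.4 and 39.6, 37.5 and 41.4 and 31.4 and 30.5 CPM in the same lines and 36.6 and 39.9 CPM in control, and no line passed the test there. INHBB, the beta B subunit, fell in cisplatin-resistant cells to 4.39 and 2.69 CPM, against 6.63 and 6.31 CPM in control (log2 difference -0.82, adjusted p = 0.0165), and the call was lost without cisplatin-resistant library 2, control library 1 or control library 2 (log2 difference -0.85 to -0.51, adjusted p = 0.0611 to 0.262) and with loess scaling. LEFTY1, an antagonist of nodal signalling, was called lower in the same line at a weak peak of 1.35 and 0.819 CPM, against 1.95 and 3.60 CPM in control (log2 difference -1.02, adjusted p = 0.0355). It lost that call without cisplatin-resistant library 2 or control library 2 (log2 difference -0.78 to -0.65, adjusted p = 0.227 to 0.355) and with median-ratio or loess scaling. INHA, which shares its gene end with OBSL1, and LEFTY2 passed no test against control, nor did the span peak of NODAL.

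**Figure D2:**
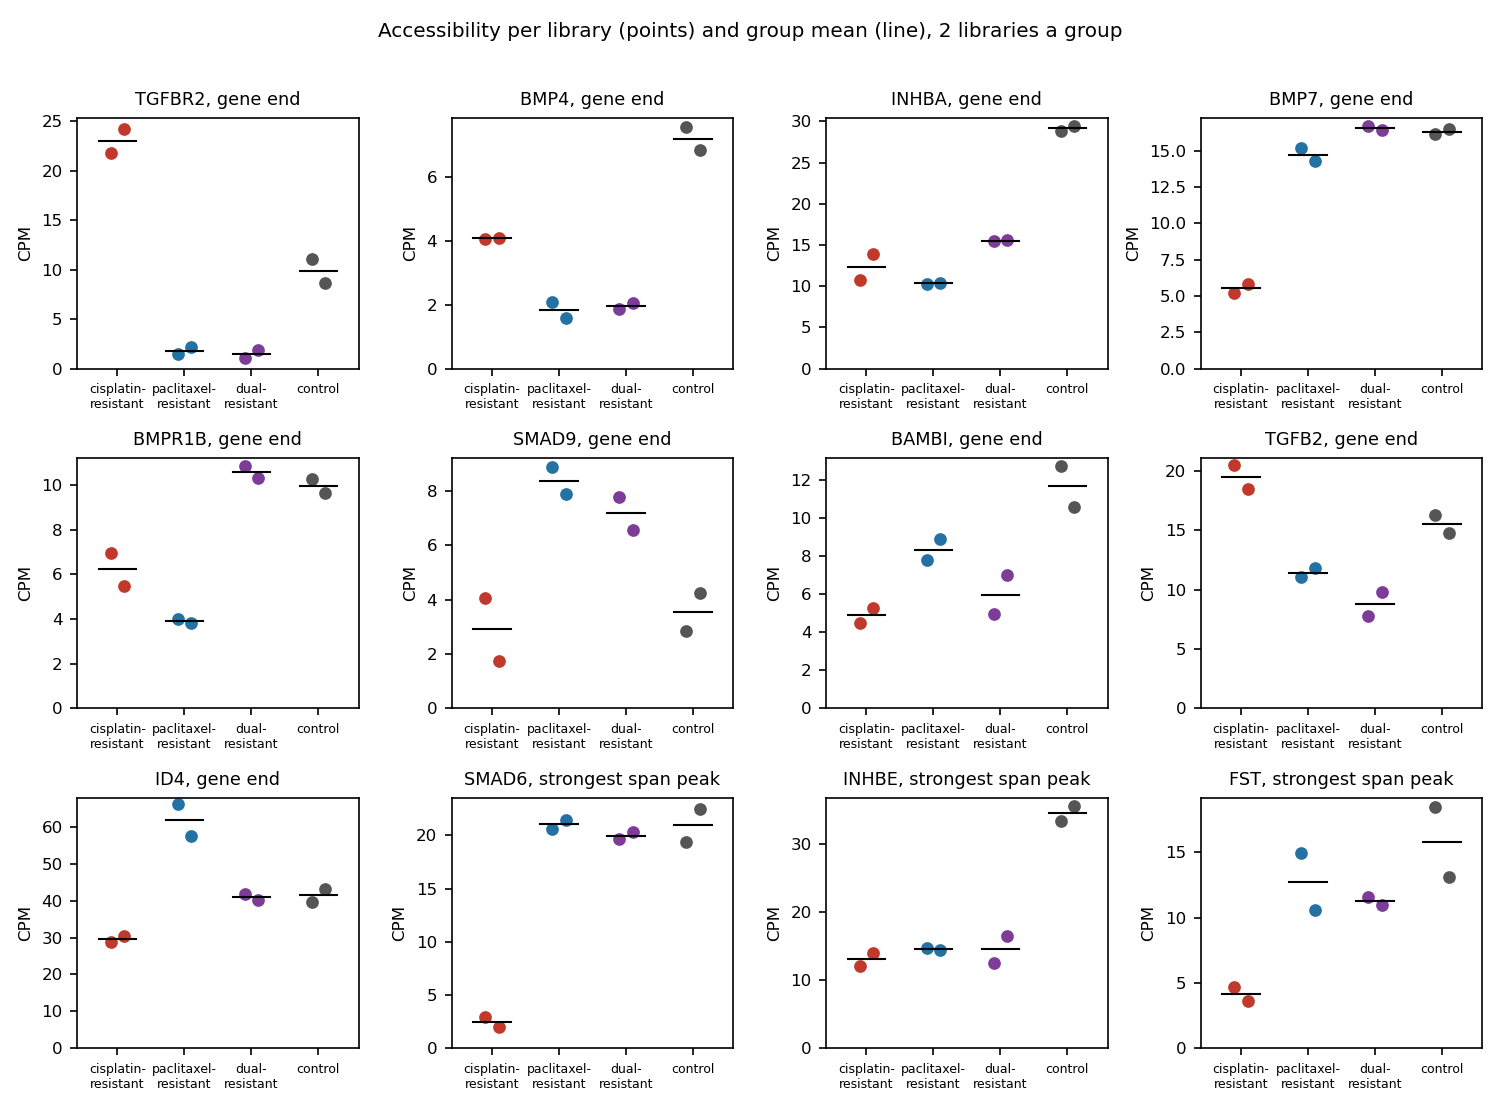
Accessibility in CPM (y axis, starting at 0) of 12 peaks in each of the 8 libraries, with points for libraries and a line at the mean of each group. TGFBR2 is high in the cisplatin-resistant libraries (21.8 and 24.2 CPM) and low in the paclitaxel- and dual-resistant ones, and the SMAD6 span peak is low in the cisplatin-resistant libraries alone.

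The gene end that differed most among the receptors was TGFBR2, the type II receptor for TGF-beta, at a peak that holds 2 listed starts (chr3:30606042-30607042). It had 21.8 and 24.2 CPM in cisplatin-resistant, 1.46 and 2.13 CPM in paclitaxel-resistant and 1.11 and 1.83 CPM in dual-resistant libraries, against 11.1 and 8.62 CPM in control libraries. The cisplatin-resistant libraries were above control and the libraries of both other lines below it, with no overlap. Accessibility rose in cisplatin-resistant cells (log2 difference 1.19, SE 0.28, adjusted p = 0.000279) and fell in paclitaxel-resistant (log2 difference -2.18, SE 0.28, adjusted p = 1.99e-10) and dual-resistant cells (log2 difference -2.41, SE 0.28, adjusted p = 6.63e-12). The peak contains the AP-1 element printed above and none of the SMAD letters in that window. Its gene end is shared with LOC105377015. All 6 peaks over TGFBR2 were in its span, and 4 of them were called higher in cisplatin-resistant cells, while 1 was called lower in each of the other lines.

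Of the other type II receptors, ACVR2A, which binds activins, had 21.6 and 19.3 CPM in cisplatin-resistant libraries, against 12.5 and 17.8 CPM in control libraries (log2 difference 0.44, adjusted p = 0.0288), and the call was lost without cisplatin-resistant library 1 or control library 1 (log2 difference 0.20 to 0.36, adjusted p = 0.189 to 0.502). BMPR2, the main BMP type II receptor, had 33.8 and 36.2, 41.04 and 50.1 and 32.5 and 35.6 CPM in the cisplatin-, paclitaxel- and dual-resistant libraries and 38.2 and 34.5 CPM in control libraries. ACVR2B, another activin type II receptor, had 21.9 and 22.2, 19.1 and 13.9 and 16.7 and 13.5 CPM, against 19.5 and 17.6 CPM in control. Neither passed the test in any line, though the paclitaxel difference of BMPR2 lay at the threshold (log2 difference 0.32, adjusted p = 0.0503).

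Type I receptors differed at BMPR1B and ACVRL1. BMPR1B, a BMP receptor of cartilage and ovary, had 4.01 and 3.82 CPM at its gene end (chr4:94758302-94759302) in paclitaxel-resistant and 6.98 and 5.50 CPM in cisplatin-resistant libraries, against 10.3 and 9.65 CPM in control libraries. It fell in both (log2 difference -1.25, SE 0.24, adjusted p = 1.81e-05 in paclitaxel- and log2 difference -0.64, adjusted p = 0.0269 in cisplatin-resistant cells), and dual-resistant libraries had 10.9 and 10.3 CPM (log2 difference 0.09, adjusted p = 0.873). The cisplatin call was lost without cisplatin-resistant library 2, control library 1 or control library 2 (log2 difference -0.69 to -0.48, adjusted p = 0.0764 to 0.209) and under loess and median-ratio scaling. ACVRL1, the ALK1 receptor of endothelial cells, had 3.38 and 2.57 CPM in cisplatin-resistant libraries, against 7.41 and 7.34 CPM in control libraries (log2 difference -1.19, SE 0.27, adjusted p = 0.000163). Of 6 endothelial markers 2 had a peak, and in the same libraries they moved in opposite directions. KDR had 4.05 and 2.11 CPM in cisplatin-resistant and 9.23 and 11.97 CPM in control libraries (log2 difference -1.68, adjusted p = 1.78e-05), and ROBO4 had 10.8 and 10.9 CPM against 1.04 and 1.80 CPM (log2 difference 2.59, adjusted p = 1.11e-08). Their part was not tested. TGFBR1, the type I receptor for TGF-beta, had 17.3 and 28.3, 26.7 and 27.2 and 25.6 and 21.3 CPM in the 3 resistant lines and 26.5 and 26.3 CPM in control libraries. No call was made there, nor at BMPR1A, ACVR1 and ACVR1B, whose log2 differences ran from -0.37 (BMPR1A in dual-resistant cells) to 0.21 (ACVR1 in paclitaxel-resistant cells).

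The co-receptors were read mainly over their spans. TGFBR3, betaglycan, presents ligands to TGFBR2, and its strongest span peak (chr1:91885669-91886669) at a listed start had 26.4 and 28.5 CPM in cisplatin-resistant libraries, against 19.9 and 17.5 CPM in control libraries (log2 difference 0.55, adjusted p = 0.00167). ENG, endoglin, had a strongest span peak (chr9:127825346-127826346) that fell in cisplatin-resistant cells to 6.08 and 7.72 CPM, against 12.2 and 13.4 CPM in control (log2 difference -0.85, adjusted p = 0.000482). In paclitaxel-resistant libraries the same peak had 9.23 and 7.42 CPM (log2 difference -0.60, adjusted p = 0.0309), a call lost without paclitaxel-resistant library 2, control library 1 or control library 2 (log2 difference -0.66 to -0.45, adjusted p = 0.0786 to 0.265) and under every other scaling. At the ENG gene end the control libraries themselves differed (4.68 and 0.644 CPM), and no line passed the test.

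SMAD9 (SMAD8), a receptor-regulated SMAD of the BMP branch, was the single SMAD whose gene end rose. Its gene-end peak (chr13:36920511-36921511) had 8.86 and 7.87 CPM in paclitaxel- and 7.79 and 6.56 CPM in dual-resistant libraries, against 2.86 and 4.25 CPM in control libraries (log2 difference 1.15, SE 0.29, adjusted p = 0.00173 in paclitaxel- and log2 difference 0.94, SE 0.29, adjusted p = 0.0169 in dual-resistant cells). Both resistant groups lay above control, and the cisplatin-resistant libraries, at 4.05 and 1.75 CPM, overlapped it. The paclitaxel call was lost without control library 1 (log2 difference 0.90, adjusted p = 0.0752), and the dual call without dual-resistant library 1, dual-resistant library 2 or control library 1 (log2 difference 0.69 to 1.05, adjusted p = 0.0597 to 0.237) and with quantile scaling. The strongest SMAD9 span peak (chr13:36918577-36919577), 1.2 kb after a listed start, had 16.8 and 13.9 CPM in paclitaxel-resistant libraries, against 7.80 and 6.44 CPM in control libraries (log2 difference 1.06, SE 0.22, adjusted p = 9.04e-05).

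SMAD2, a mediator of the TGF-beta and activin branch, fell in each line. It had 19.8 and 27.5 CPM in cisplatin-, 27.8 and 29.8 CPM in paclitaxel- and 29.1 and 31.1 CPM in dual-resistant libraries, against 37.3 and 40.4 CPM in control libraries, and no resistant library reached control. The log2 difference was -0.72 (adjusted p = 4.08e-06) in cisplatin-, -0.43 (adjusted p = 0.0138) in paclitaxel- and -0.36 (adjusted p = 0.0489) in dual-resistant cells. The paclitaxel call was lost without paclitaxel-resistant library 1 or control library 2 (log2 difference -0.38 to -0.37, adjusted p = 0.139 to 0.153) and with median-ratio scaling. The dual call was lost without paclitaxel-resistant library 1, paclitaxel-resistant library 2, dual-resistant library 1, dual-resistant library 2, control library 1 or control library 2 (log2 difference -0.42 to -0.31, adjusted p = 0.0583 to 0.283) and with quantile or loess scaling.

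SMAD4, the common partner, was lower in cisplatin-resistant libraries at 16.9 and 17.7 CPM, against 22.8 and 23.7 CPM in control libraries (log2 difference -0.42, adjusted p = 0.0261). It lost that call without cisplatin-resistant library 1, cisplatin-resistant library 2, control library 1 or control library 2 (log2 difference -0.45 to -0.39, adjusted p = 0.0589 to 0.129) and under every other scaling. SMAD1 and SMAD5 of the BMP branch and SMAD3 of the TGF-beta branch passed no test against control at their gene ends. SMAD1 had 6.30 and 8.54, 5.83 and 13.9 and 9.03 and 10.2 CPM in the cisplatin-, paclitaxel- and dual-resistant libraries, against 5.85 and 7.59 CPM in control libraries, SMAD3 had 7.54 and 8.77, 12.99 and 12.6 and 8.53 and 8.38 against 10.1 and 10.9 CPM, and SMAD5 had 15.6 and 22.2, 19.6 and 23.7 and 21.4 and 20.4 against 21.4 and 20.5 CPM. The 2 paclitaxel-resistant libraries differed at SMAD1 more than the groups did.

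SMAD6, an inhibitory SMAD of the BMP branch, held the most changed strongest span peak of the cisplatin-resistant line. This peak, 4.2 kb after a listed start (chr15:66705932-66706932), had 2.93 and 1.99 CPM in cisplatin-, 20.6 and 21.5 CPM in paclitaxel- and 19.7 and 20.3 CPM in dual-resistant libraries, against 19.4 and 22.5 CPM in control libraries. It fell in cisplatin-resistant cells (log2 difference -2.87, SE 0.19, adjusted p = 3.81e-25), while both other lines lay within or near the control range (log2 difference 0.01, adjusted p = 0.981 in paclitaxel- and log2 difference -0.06, adjusted p = 0.885 in dual-resistant cells). The SMAD6 gene end had 31.9 and 36.01 CPM in cisplatin-resistant and 34.2 and 38.7 CPM in control libraries and was not called (log2 difference -0.10, adjusted p = 0.553). SMAD7, which inhibits both branches, had 4.95 and 7.37 CPM in cisplatin-resistant libraries, against 10.9 and 8.49 CPM in control libraries (log2 difference -0.63, adjusted p = 0.0260), and lost the call without cisplatin-resistant library 1 or control library 1 (log2 difference -0.46 to -0.37, adjusted p = 0.251 to 0.345) and with loess or median-ratio scaling. Neither SMURF1 nor SMURF2, ubiquitin ligases that mark SMADs and receptors for breakdown, was called at its gene end.

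BAMBI, which resembles a type I receptor but lacks its kinase, fell in cisplatin- and dual-resistant cells. Its gene end (chr10:28677071-28678071) had 4.50 and 5.26 CPM in cisplatin- and 4.95 and 6.99 CPM in dual-resistant libraries, against 12.7 and 10.6 CPM in control libraries (log2 difference -1.17, SE 0.24, adjusted p = 3.37e-05 in cisplatin- and log2 difference -0.92, SE 0.24, adjusted p = 0.00291 in dual-resistant cells). Paclitaxel-resistant libraries had 7.77 and 8.88 CPM and did not pass the test (log2 difference -0.46, adjusted p = 0.196), although they too lay below control. The dual call was lost without dual-resistant library 1 or control library 1 (log2 difference -0.79 to -0.69, adjusted p = 0.0866 to 0.137). The SMAD letters of the BAMBI window are printed above.

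Of the secreted antagonists, FST, follistatin, which binds activins, was lower in the cisplatin-resistant line inside the gene. The peak 2.4 kb after a listed start (chr5:53482483-53483483) had 4.73 and 3.62 CPM in cisplatin-resistant libraries, against 18.5 and 13.1 CPM in control libraries (log2 difference -1.79, SE 0.21, adjusted p = 1.27e-11). CHRD, chordin, which binds BMPs, likewise fell in that line at its strongest span peak (chr3:184381141-184382141), with 1.80 and 0.935 CPM against 5.85 and 4.12 CPM in control (log2 difference -1.57, SE 0.30, adjusted p = 9.03e-06). Neither gene was called in cisplatin-resistant cells at its gene end (log2 difference -0.16, adjusted p = 0.680 for FST and log2 difference -0.07, adjusted p = 0.883 for CHRD). The FST gene end was called lower in paclitaxel-resistant cells, at 4.37 and 4.72 CPM against 7.28 and 8.75 CPM in control (log2 difference -0.75, adjusted p = 0.0294), and lost that call without paclitaxel-resistant library 1, paclitaxel-resistant library 2, control library 1 or control library 2 (log2 difference -0.88 to -0.63, adjusted p = 0.0555 to 0.223) and under every other scaling.

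NOG, noggin, a BMP antagonist, had 5.10 and 4.95 CPM in paclitaxel- and 4.95 and 4.73 CPM in dual-resistant libraries at its gene end (chr17:56592436-56593436), against 8.06 and 10.04 CPM in control libraries (log2 difference -0.78, adjusted p = 0.0125 in paclitaxel- and log2 difference -0.83, adjusted p = 0.00887 in dual-resistant cells). The paclitaxel call was lost without paclitaxel-resistant library 1, paclitaxel-resistant library 2 or control library 2 (log2 difference -0.80 to -0.63, adjusted p = 0.0541 to 0.175) and under every other scaling, and the dual call without dual-resistant library 1, dual-resistant library 2 or control library 2 (log2 difference -0.86 to -0.68, adjusted p = 0.0531 to 0.149). In cisplatin-resistant cells the gene end had 10.1 and 15.3 CPM and was not called (log2 difference 0.45, adjusted p = 0.143), but the strongest NOG span peak rose to 7.77 and 10.1 CPM, against 5.07 and 3.73 CPM in control (log2 difference 0.94, adjusted p = 0.00790), a call lost without cisplatin-resistant library 2 or control library 2 (log2 difference 0.75 to 0.77, adjusted p = 0.115 to 0.128). GREM1, gremlin, another BMP antagonist, had weak peaks. Its span peak had 4.73 and 2.10 CPM in cisplatin-resistant libraries, against 1.17 and 1.03 CPM in control (log2 difference 1.21, adjusted p = 0.0400), and lost the call without cisplatin-resistant library 1, control library 1 or control library 2 (log2 difference 0.70 to 1.27, adjusted p = 0.104 to 0.433) and with quantile or loess scaling. Its gene end had 1.21 and 0.562 CPM in paclitaxel-resistant libraries, against 2.34 and 3.48 CPM in control (log2 difference -1.32, adjusted p = 0.0165), and lost that call without paclitaxel-resistant library 2 or control library 2 (log2 difference -1.07 to -0.97, adjusted p = 0.194 to 0.203) and with loess scaling.

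The ID genes encode inhibitors of basic helix-loop-helix factors, and their gene ends were among the strongest of the pathway, with ID1 the highest at a mean of 50.4 CPM. ID4 moved in opposite directions in the single-resistant lines. It had 66.05 and 57.5 CPM in paclitaxel- and 28.7 and 30.5 CPM in cisplatin-resistant libraries, against 39.6 and 43.2 CPM in control libraries, with no overlap (log2 difference 0.57, SE 0.11, adjusted p = 3.02e-05 in paclitaxel- and log2 difference -0.48, SE 0.11, adjusted p = 0.000299 in cisplatin-resistant cells). The dual-resistant libraries, at 41.8 and 40.2 CPM, lay in the control range (log2 difference -0.01, adjusted p = 0.958). ID3 fell in cisplatin-resistant cells to 29.3 and 25.5 CPM, against 39.5 and 37.1 CPM in control (log2 difference -0.48, adjusted p = 0.000560). ID1 had 48.3 and 43.97 CPM in cisplatin- and 42.2 and 44.6 CPM in dual-resistant libraries, against 58.6 and 59.7 CPM in control libraries (log2 difference -0.36, adjusted p = 0.00366 in cisplatin- and log2 difference -0.44, adjusted p = 0.000699 in dual-resistant cells). The ID1 cisplatin call was lost without cisplatin-resistant library 2 (log2 difference -0.29, adjusted p = 0.0702) and under every other scaling, and the dual call with loess scaling (-0.28, adjusted p = 0.0550). ID2 had 46.03 and 49.1, 41.5 and 42.3 and 50.5 and 49.9 CPM in the 3 lines, against 41.3 and 41.8 CPM in control, and was not called.

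In all, 618 peaks lay over the 51 genes (364 peaks) or from 1 to 100 kb away with one of them as the nearest protein-coding gene (254 peaks), and 40 of the 48 gene-end peaks were among them. In cisplatin-resistant cells 129 of the 618 peaks were higher and 98 lower, beside 18.3% and 14.9% of all tested peaks. In paclitaxel-resistant cells 23 were higher and 49 lower, beside 7.26% and 9.17%, and in dual-resistant cells 54 were higher and 23 lower, beside 8.11% and 5.39%. Among the strongest span peaks of the 51 genes, cisplatin-resistant cells had 5 higher and 21 lower, paclitaxel-resistant cells 2 and 11, and dual-resistant cells 0 and 7, beside 10.7% and 29.2%, 12.9% and 9.94%, and 5.44% and 14.1% of all genes. For the count of 0 higher in limma's test, 7 strongest span peaks were higher in dual-resistant cells at an unadjusted p under 0.05, and edgeR called 0. Loess scaling gave 8 higher and 12 lower strongest span peaks in cisplatin-resistant cells (16.6% and 14.0% of all genes) and 1 and 6 in dual-resistant cells (6.67% and 7.41%), and median-ratio scaling gave 6 and 8 in paclitaxel-resistant cells (26.1% and 6.10%). For the 618 peaks, median-ratio scaling gave 36 higher and 37 lower in paclitaxel-resistant cells (10.3% and 6.46% of all tested peaks), loess scaling gave 29 and 31 there (8.70% and 6.28%), and quantile scaling gave 38 and 27 in dual-resistant cells (6.35% and 5.63%). The dual count of 77 fell to 41 without dual-resistant library 1 and to 47 without control library 1, and the paclitaxel count of 72 fell to 46 without control library 1 and to 47 without control library 2. Leaving out dual-resistant library 1 also took the 7 strongest span peaks of that line to 4, and leaving out control library 2 took the 26 of the cisplatin-resistant line to 17.

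Some genes had many peaks called higher in a single line, over the gene or near it. Some of these peaks passed the filter of 1 CPM in 2 libraries only through that line, so they could hardly be called lower there. A BMPR1B peak 8.9 kb into the gene had a mean of 6.70 CPM in dual-resistant cells. Its means were 0.288 CPM in cisplatin-resistant, 0 CPM in paclitaxel-resistant and 0.454 CPM in control cells. A lack of lower calls in these sets is therefore not read as a result. The counts of higher calls below include such peaks, so they too are given only as a description of these sets. At TGFBR3, 16 of 21 peaks were higher in cisplatin-resistant cells and none was lower, with a median log2 difference of 1.77. Its most changed strong peak (chr1:91736631-91737631), inside the gene, had 18.2 and 17.9 CPM in cisplatin-, 0.850 and 0.899 CPM in paclitaxel- and 4.33 and 3.55 CPM in dual-resistant libraries, against 0.650 and 1.29 CPM in control libraries. Cisplatin-resistant values lay far above the rest (log2 difference 3.69, SE 0.34, adjusted p = 3.47e-16), and dual-resistant values above control (log2 difference 1.62, adjusted p = 0.000183).

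SMURF2 had the most called peaks, 41 of 55 higher in cisplatin-resistant cells, although its gene end was not called (log2 difference 0.41, adjusted p = 0.157). The most changed of its strong peaks (chr17:64706715-64707715), 45 kb before the gene, had 22.1 and 19.1 CPM in cisplatin-resistant libraries, against 0.390 and 2.45 CPM in control libraries (log2 difference 3.70, SE 0.41, adjusted p = 7.96e-13). BMP6, a ligand of iron regulation, had 5 of 10 peaks higher in that line, 2 over the gene and 3 outside it, and 1 lower. A BMP6 peak 4.8 kb after a listed start (chr6:7730446-7731446) had 15.8 and 11.6 CPM in cisplatin-resistant libraries, against 1.43 and 0.386 CPM in control libraries (log2 difference 3.42, SE 0.41, adjusted p = 2.12e-11). At SMAD3, 11 of 26 peaks were higher in cisplatin-resistant cells and none was lower, but its strongest span peak was not higher. At FST, 5 of 8 peaks were higher and 2 lower. All 5 higher FST peaks lay outside the gene, and its only span peak was lower. The FST counts fell without some single libraries.

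In dual-resistant cells BMPR1B and BMP5 had the most peaks called higher, ahead of SMAD9, BMP7 and ID2 with 4 each. At BMPR1B, no peak was lower, under the limit of the filter given above, and 23 of 42 were higher. The count was 12 without dual-resistant library 1 and 14 without dual-resistant library 2, control library 1 or control library 2. A peak inside the gene (chr4:94931498-94932498) had 10.5 and 9.78 CPM in dual-resistant libraries, against 1.04 and 1.29 CPM in control libraries (log2 difference 2.68, SE 0.43, adjusted p = 5.88e-07). Cisplatin- and paclitaxel-resistant libraries had 0.113 and 0.234 and 0.971 and 1.01 CPM there, at or below control. BMP5, a BMP ligand with no gene-end peak, had 7 of 14 peaks higher, and 6 of these lay 78 to 88 kb before the gene. The largest log2 difference of these peaks was at chr6:55957068-55958068, with 12.6 and 16.1 CPM in dual-resistant libraries, against 1.30 and 0.515 CPM in control libraries (log2 difference 3.45, SE 0.42, adjusted p = 8.96e-11).

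SMAD9 had 4 of 10 peaks higher in paclitaxel- and 4 in dual-resistant cells. The paclitaxel count was 2 without paclitaxel-resistant library 1, paclitaxel-resistant library 2 or control library 1. In dual-resistant cells it was 1 without dual-resistant library 1 and 0 without dual-resistant library 2 or control library 1. ID4 had 6 of 17 peaks higher and 2 lower in paclitaxel-resistant cells, and the count higher was 4 without paclitaxel-resistant library 1 or control library 2. An ID4 peak 1.5 kb after a listed start (chr6:19838343-19839343) had 19.2 and 20.6 CPM in paclitaxel-resistant libraries, against 8.06 and 9.91 CPM in control libraries (log2 difference 1.11, adjusted p = 9.58e-06). ID1 had 2 of 14 peaks lower in that line, 14.3% beside 9.17% of all tested peaks, so this count is not read as a result about ID1. The count fell without some single libraries. A peak 9.1 kb before the gene (chr20:31595647-31596647) had 25.01 and 25.3 CPM in paclitaxel-resistant libraries, against 33.9 and 35.8 CPM in control (log2 difference -0.46, adjusted p = 0.00645). That call was lost after subtraction of the regional level described below (-0.27, adjusted p = 0.202).

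**Figure D3:**
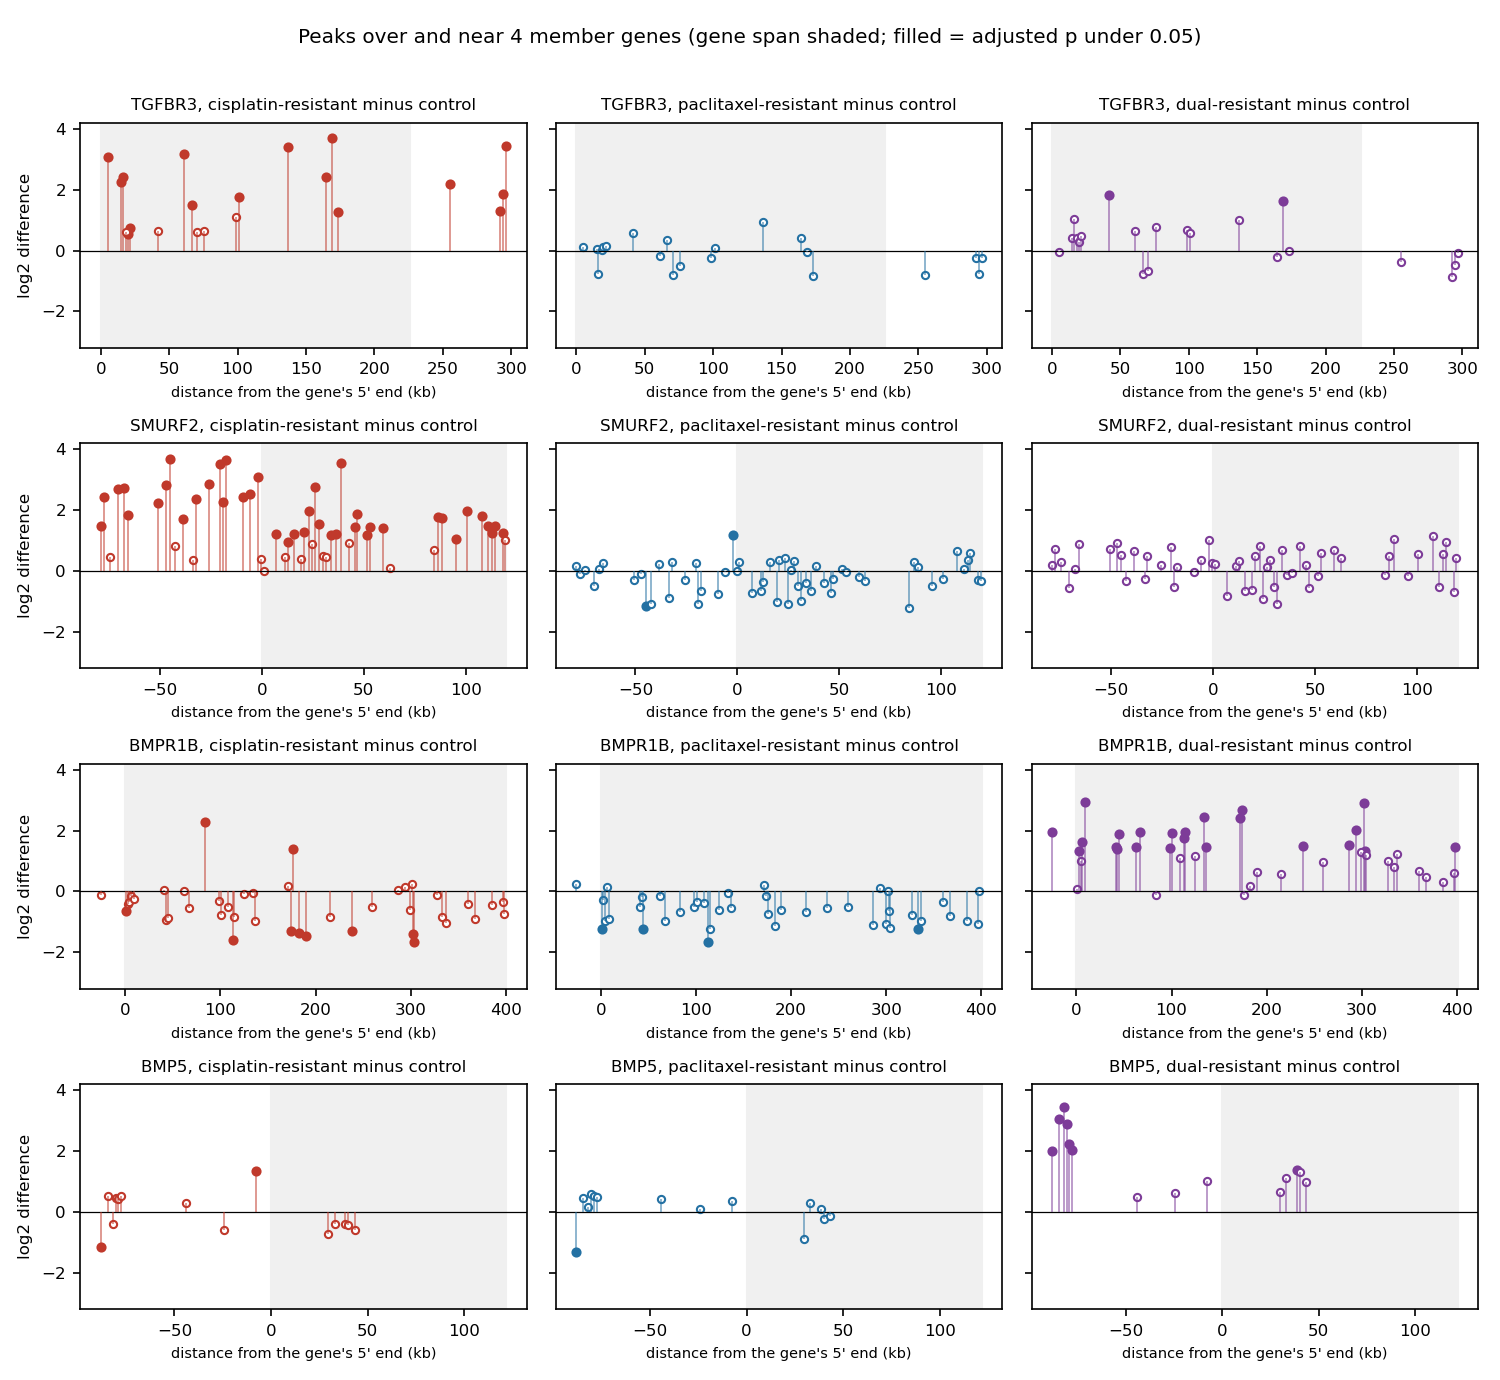
Log2 difference against control (y axis) of each peak over or near TGFBR3, SMURF2, BMPR1B and BMP5, by distance from the 5' end of the gene in kb (x axis), with the span shaded and filled points called. In the cisplatin-resistant line 16 of 21 TGFBR3 and 41 of 55 SMURF2 peaks were called higher, and in the dual-resistant line 23 of 42 BMPR1B and 7 of 14 BMP5 peaks.

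Several of these genes lay in wide regions that differed as a whole. The level of a region was taken as the median log2 difference of tested peaks from 100 kb to 2.5 Mb away, and a peak was tested again after that level was subtracted in each library. Around BMPR1B the region lay at 1.28 in dual-resistant cells (154 peaks, 28 of them its own), and after subtraction 3 of its 42 peaks were higher and 3 lower. The BMPR1B gene end, not called before, was then lower (-1.20, adjusted p = 6.88e-05). The peak inside BMPR1B kept a difference of 1.37 (adjusted p = 0.0229). In paclitaxel-resistant cells the region lay at -0.60 and the gene end was no longer called (-0.65, adjusted p = 0.0551).

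The region of TGFBR2 lay at 0.88 in cisplatin-, -0.41 in paclitaxel- and -0.14 in dual-resistant cells. After subtraction the gain in cisplatin-resistant cells was 0.31 and not called (adjusted p = 0.456), while the losses were -1.77 (adjusted p = 1.60e-07) in paclitaxel- and -2.27 (adjusted p = 5.47e-11) in dual-resistant cells. TGFB2 lay in a region at -0.96, -0.91 and -0.90 in the 3 lines. Relative to it, the TGFB2 gene end was higher in cisplatin-resistant cells (1.28, adjusted p = 6.90e-09), and the dual difference was 0.10 (adjusted p = 0.797).

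Subtraction left the INHBA differences at -1.02, -1.86 and -1.07 in cisplatin-, paclitaxel- and dual-resistant cells, BMP4 at -1.46 and -1.62 in the paclitaxel- and dual-resistant lines, and BMP7 at -1.46 and the SMAD6 span peak at -2.72 in the cisplatin-resistant line, all called. SMAD9 was at 1.66 in paclitaxel-resistant cells (region -0.51), where the median of all gene ends had also moved up. The SMAD2, SMAD4 and SMAD7 gene ends, all on chromosome 18, lost their cisplatin calls (-0.24, -0.04 and -0.14, with adjusted p = 0.202, 0.895 and 0.720), and their regions lay at -0.48, -0.38 and -0.49. The ID4 gain in paclitaxel-resistant cells was 0.21 after subtraction (adjusted p = 0.264), with its region at 0.36, and the TGFBR3 start peak was at -0.12 in cisplatin-resistant cells (adjusted p = 0.598). Over the peak sets, 11 of 21 TGFBR3, 25 of 55 SMURF2 and 13 of 26 SMAD3 peaks were higher than their region in cisplatin-resistant cells. In dual-resistant cells 7 of 14 BMP5 peaks were higher than their region, and in paclitaxel-resistant cells 7 of 10 SMAD9 peaks. After the same subtraction 9.16% of all gene ends were higher in cisplatin-, 23.2% in paclitaxel- and 3.93% in dual-resistant cells. The share of all tested peaks after subtraction is not given here, so how far these counts exceed it is not known. Other sets did not keep their excess of higher calls. At ID4 in paclitaxel-resistant cells 2 of 17 peaks were then higher and 4 lower. At BMP6 in cisplatin-resistant cells 4 of 10 were higher and 4 lower. Among other calls lost after subtraction were the NOG span peak (0.45, adjusted p = 0.281) and TGFB1 (-0.37, adjusted p = 0.133) in cisplatin-resistant cells. The BMP2 (-0.94, adjusted p = 0.0671) and GREM1 (-0.89, adjusted p = 0.158) gene ends lost theirs in paclitaxel-resistant cells. What sets the level of a region was not tested.

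**Figure D4:**
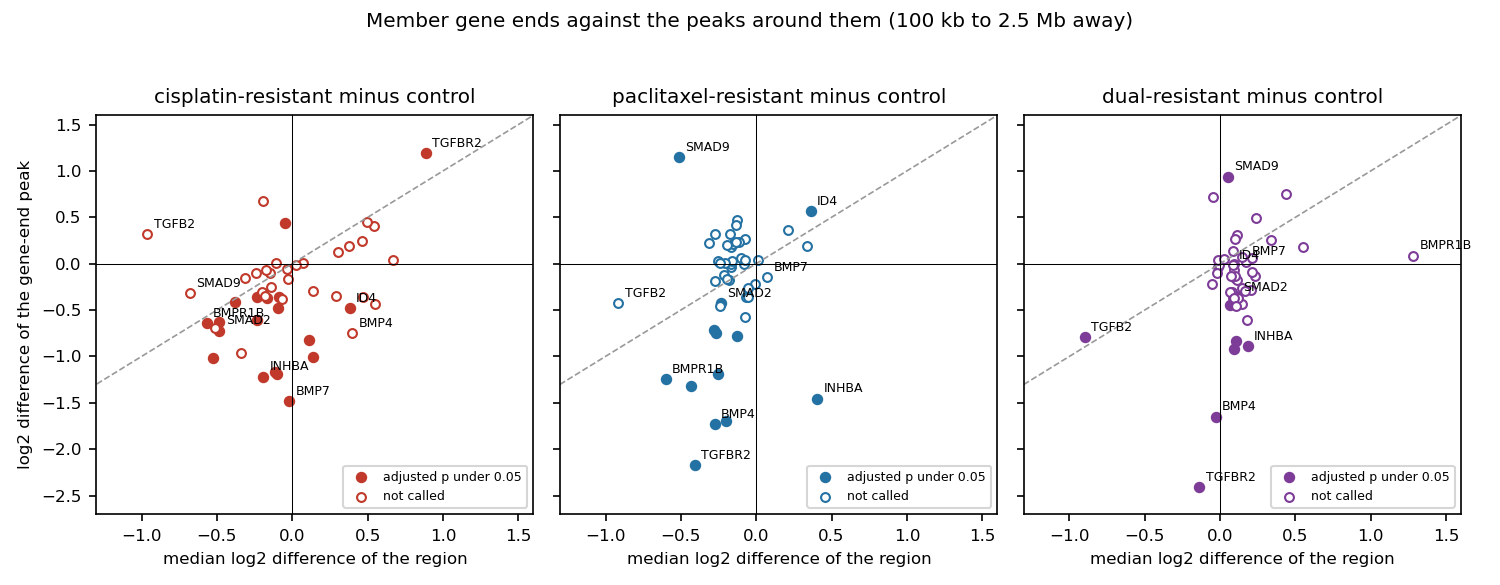
Log2 difference of each gene-end peak against control (y axis) and the median log2 difference of the tested peaks 100 kb to 2.5 Mb away (x axis), for each resistant line, with the dashed line at equal values and filled points called. TGFBR2 lies near the dashed line in cisplatin-resistant cells and far below it in the other lines, and BMPR1B lies at a region level of 1.28 in dual-resistant cells.

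The resistant lines were also compared with each other. In dual- against cisplatin-resistant cells 11 of the 48 gene ends were higher and 6 lower, beside 19.6% and 16.9% of all gene ends. In dual- against paclitaxel-resistant cells 4 were higher and 8 lower, beside 7.58% and 24.3%, and in paclitaxel- against cisplatin-resistant cells 17 were higher and 8 lower, beside 34.5% and 13.1%. The widest difference was at TGFBR2, at -3.60 in dual- against cisplatin-resistant cells (adjusted p = 5.03e-21) and -3.37 in paclitaxel- against cisplatin-resistant cells (adjusted p = 1.60e-19). Dual- and paclitaxel-resistant cells did not pass the test against each other there (log2 difference -0.23, SE 0.28, adjusted p = 0.599). In the interaction (dual minus cisplatin minus paclitaxel plus control), 8 gene ends were above the sum of the single-resistant differences and 2 below it, beside 16.2% and 17.8% of all gene ends.

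Against the cisplatin-resistant line, BMP7, SMAD9 and NOG set both other lines apart. BMP7 was higher in dual- (log2 difference 1.51, adjusted p = 5.48e-11) and in paclitaxel-resistant cells (log2 difference 1.34, adjusted p = 2.21e-09), SMAD9 likewise (log2 difference 1.26, adjusted p = 0.000205, and log2 difference 1.47, adjusted p = 1.39e-05), and NOG was lower in both (log2 difference -1.28, adjusted p = 5.07e-06, and log2 difference -1.23, adjusted p = 9.68e-06). The SMAD9 dual call was lost without cisplatin-resistant library 2 (0.75, adjusted p = 0.0626) and after subtraction of the regional level (0.52, adjusted p = 0.155). GREM1 was higher in dual- than in cisplatin-resistant cells (log2 difference 1.27, adjusted p = 0.00938), a call lost without cisplatin-resistant library 2 (1.003, adjusted p = 0.113) or dual-resistant library 2 (1.20, adjusted p = 0.0705) and after regional subtraction (0.81, adjusted p = 0.120). GDF6 was lower in paclitaxel- than in cisplatin-resistant cells (log2 difference -1.26, adjusted p = 1.91e-05), a call also lost after regional subtraction (-0.51, adjusted p = 0.113).

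Dual-resistant cells exceeded paclitaxel-resistant cells at BMPR1B (log2 difference 1.33, adjusted p = 4.59e-06), GDF6 (log2 difference 1.26, adjusted p = 4.78e-05) and GREM1 (log2 difference 1.62, adjusted p = 0.00178), and were below them at BMP6 (log2 difference -0.65, adjusted p = 0.00418) and ID4 (log2 difference -0.58, adjusted p = 1.86e-05). The GREM1 call was lost without paclitaxel-resistant library 2 (1.28, adjusted p = 0.0568) and the BMP6 call without paclitaxel-resistant library 1 (-0.51, adjusted p = 0.12) or dual-resistant library 2 (-0.46, adjusted p = 0.141). After regional subtraction the ID4 (-0.30, adjusted p = 0.0525) and GREM1 (1.08, adjusted p = 0.0573) calls were lost and BMPR1B changed sign (-0.55, adjusted p = 0.102). These counts, like the shares of all gene ends, moved with the processing. Median-ratio scaling gave 6 higher and 9 lower for dual against cisplatin (10.4% and 29.3% of all gene ends), 3 and 16 for dual against paclitaxel (4.09% and 47.9%) and 21 and 6 for paclitaxel against cisplatin (40.4% and 11.8%). Loess scaling gave 6 and 9 (14.5% and 19.8%), 5 and 4 (8.09% and 11.7%), and 10 and 13 (16.8% and 19.5%). Quantile scaling gave 5 and 3 for dual against paclitaxel (7.94% and 10.4%). The 17 calls of dual against cisplatin became 9 without dual-resistant library 2 and 11 without cisplatin-resistant library 2. The 12 calls of dual against paclitaxel became 5 without paclitaxel-resistant library 2 or dual-resistant library 1, and 7 without dual-resistant library 2. The 25 calls of paclitaxel against cisplatin became 16 without paclitaxel-resistant library 2.

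A list of 68 further genes of the pathway, 57 with a gene-end peak, held more calls lower than higher in each line, as did all gene ends in the cisplatin- and dual-resistant lines, though median-ratio scaling gave 6 higher and 6 lower and edgeR 6 and 7 in paclitaxel-resistant cells, and loess scaling 5 and 6 in cisplatin-resistant cells. Of these 57, cisplatin-resistant cells had 5 that rose and 13 that fell, paclitaxel-resistant cells 4 and 13, and dual-resistant cells 5 and 10, beside the 11.1% and 28.6%, 12.7% and 9.68%, and 4.86% and 14.8% of all gene ends given above. The medians were -0.18, -0.14 and -0.12. Calls of single genes of this list were not followed through the other settings or without single libraries, so whether they hold there is not known. Of the ligands, GDF15, a stress-induced factor, had 7.09 and 11.6 CPM in cisplatin-resistant libraries, against 23.4 and 21.4 CPM in control (log2 difference -1.26, adjusted p = 1.64e-08), and BMP8A was lower in cisplatin- (log2 difference -1.30, adjusted p = 0.00213) and paclitaxel-resistant cells (log2 difference -1.49, adjusted p = 0.000753). SKIL, a nuclear repressor of SMADs and itself a TGF-beta target, had 16.5 and 17.5 CPM in cisplatin-resistant libraries, against 37.2 and 40.5 CPM in control (log2 difference -1.17, adjusted p = 1.28e-11), with no overlap.

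NBL1 (1.39, adjusted p = 8.90e-06), a BMP antagonist of the DAN family, and the TGF-beta targets COL1A1 (0.79, adjusted p = 1.80e-06) and SNAI2 (0.55, adjusted p = 3.98e-05) rose in cisplatin-resistant cells. CHRDL1, a chordin-like BMP antagonist, fell to 0.364 and 0.674 CPM in paclitaxel- and 1.24 and 1.40 CPM in dual-resistant libraries, against 4.03 and 5.92 CPM in control (log2 difference -2.42, adjusted p = 8.69e-08, and log2 difference -1.57, adjusted p = 0.000934). RGMB, a BMP co-receptor, fell in paclitaxel-resistant cells (log2 difference -1.29, adjusted p = 3.72e-07), where the BMP target DLX5 (log2 difference 0.95, adjusted p = 5.10e-12), MAP3K7, the kinase TAK1 (log2 difference 0.92, adjusted p = 6.76e-11), and LTBP2, a latent TGF-beta binding protein relative (log2 difference 0.72, adjusted p = 0.0198), rose.

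CCN2, connective tissue growth factor and a TGF-beta target, fell to 3.71 and 4.62 CPM in dual-resistant libraries, against 19.2 and 17.6 CPM in control libraries (log2 difference -2.03, SE 0.20, adjusted p = 3.55e-15). BMPER, an extracellular BMP regulator, fell there as well (log2 difference -1.40, adjusted p = 1.27e-07). SOSTDC1, a secreted BMP antagonist (log2 difference 0.95, adjusted p = 0.0236), MSX1, a BMP target (log2 difference 0.81, adjusted p = 0.00198), and LTBP2 (log2 difference 0.71, adjusted p = 0.0240) rose.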

How the data were processed

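Open chromatin of 8 A2780 libraries was read from a matrix of CPM values that the authors deposited for 159451 peaks of 1001 bp. The submitters' processing notes name Bowtie2, Picard, MACS2 and hg38. Versions, settings, duplicate handling, any Tn5 shift and peak merging were not given in the sources used here. Peaks sum to a common total in each library, so a change shared by all peaks cannot be seen. The CPM values were whole multiples of 1 read within 0.01 read for 100% of values, and whole reads were recovered for edgeR 4.0.16, an alternative.

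The 158698 peaks that reached 1 CPM in 2 or more libraries entered the tests as log2(CPM + 0.5) with limma 3.58.1 (R 4.3.3), all 4 groups in 1 fit with limma-trend (98.5 prior and 4 residual degrees of freedom). An SE thus rests largely on the pooled trend, as do small p-values. Differences on this scale understate weak peaks. Calls were two-sided, with Benjamini-Hochberg adjustment over these peaks at 0.05. The interaction was dual minus cisplatin minus paclitaxel plus control. Same-numbered libraries did not deviate together (correlations -0.0006 to 0.0033), so numbers did not pair them. Libraries of a group correlated at 0.926 to 0.933 across peaks, which are not independent.

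The members and lists were chosen with earlier results of these data known. Gene spans and starts came from RefSeq tables of GRCh38, and which exon or intron a peak lies in was not resolved. Distances are from a peak's centre to the nearest listed start. Values per library were given for up to 12 called gene ends a comparison with control, by size of difference, with groups apart and at least 3 CPM in the higher group, for up to 6 other strongest span peaks, and for all receptors, receptor-regulated SMADs and ID genes. Values of some weaker members were added to the text after they were seen. Single peaks of peak sets had at least 10 CPM in the higher group. Alternatives were other scalings, pseudocounts, filters, windows, edgeR, fits of the compared groups, a replicate block, subtraction of the regional level, and leaving out each library.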

Additional observations from a re-analysis of the deposited data

Results flagged for a closer look

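At each gene end, the difference in dual-resistant cells was tested against the sum of both single-resistant differences (dual minus cisplatin minus paclitaxel plus control, limma, Benjamini-Hochberg over all tested peaks). Of the 48 gene ends, 8 were above that sum and 2 below it, beside 16.2% and 17.8% of all gene ends.

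INHBA was at 1.78 (adjusted p = 2.29e-09), BMPR1B at 1.97 (adjusted p = 1.39e-06), GDF6 at 1.70 (adjusted p = 8.72e-05) and BMP7 at 1.65 (adjusted p = 3.36e-07). GREM1, with weak peaks, was at 2.59 (adjusted p = 0.000278) and ACVRL1 at 1.58 (adjusted p = 0.000502). SMAD2 was at 0.78 (adjusted p = 0.000506) and BMP2 at 1.59 (adjusted p = 0.0118). The BMP2 difference was not called without dual-resistant library 2 (1.22, adjusted p = 0.108) or control library 1 (1.44, adjusted p = 0.0591).

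TGFBR2 was below the sum at -1.42 (adjusted p = 0.00271), with -2.41 in dual-, 1.19 in cisplatin- and -2.18 in paclitaxel-resistant cells against control. That call was lost after subtraction of the regional level (-0.81, adjusted p = 0.115), and BMPR1B (-0.48, adjusted p = 0.308) and SMAD2 (-0.049, adjusted p = 0.883) changed sign under it. TGFB2 was at -0.69 (adjusted p = 0.0302), a call lost without cisplatin-resistant library 1, paclitaxel-resistant library 2, dual-resistant library 1 or control library 2 (-0.64 to -0.53, adjusted p = 0.0834 to 0.142). Median-ratio scaling gave 7 gene ends above the sum and 11 below it, beside 7.26% and 37.3% of all gene ends.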

How the results depend on the processing

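Of 56 called differences of single genes against control, 23 kept direction and call in all 19 settings tried, and 33 lost the call in at least 1, of which 2 also changed sign. INHBA, INHBE and BMP4 in the lines where they were called, TGFBR2 in the paclitaxel- and dual-resistant lines, and BMP7, ACVRL1, BAMBI and the SMAD6, FST and CHRD span peaks in the cisplatin-resistant line kept theirs. Signs changed, the cause not tested, mostly after regional subtraction: TGFB2 in dual-resistant cells (0.10), the TGFBR3 span peak in cisplatin-resistant cells (-0.12), BMPR1B (-1.12) and SMAD2 (-0.24) in dual against cisplatin, BMPR1B (-0.55) and SMURF1 (0.070) in dual against paclitaxel, GDF10 (0.20), ACVR2B (0.22) and SMURF1 (-0.29) in paclitaxel against cisplatin, and BMPR1B (-0.48) and SMAD2 (-0.049) in the interaction. Loess scaling turned ID1 in dual against paclitaxel (0.0052). Some counts of calls moved by over 1.5 times. Using peaks at listed starts gave 8 gene ends (41 tested) in paclitaxel-resistant cells and 6 in the interaction, median-ratio scaling gave 19 in dual against paclitaxel and 18 in the interaction, and edgeR gave 16 in the interaction. Leaving out each library gave 12 to 20 gene ends and 17 to 26 strongest span peaks in cisplatin-resistant cells, 46 to 73 of the 618 peaks in paclitaxel-resistant cells, and 4 to 9 gene ends, 4 to 7 strongest span peaks and 41 to 80 of the 618 peaks in dual-resistant cells. Between the lines it gave 9 to 17 (dual against cisplatin), 5 to 12 (dual against paclitaxel) and 16 to 25 gene ends (paclitaxel against cisplatin). The replicate block gave 19, 14 and 9 gene ends in the 3 comparisons with control, and changed no count by over 1.5 times. Depth limits weak peaks, where 1 read is 0.107 to 0.130 CPM.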
